A study of Mus musculus with 22 samples.

Results

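The 44 genes described here encode the proteins that copy chromosomal DNA once in each cell division. They were taken by gene symbol, with no measured value in the rule, and all 44 were found. The authors' deposited tables of 2 embryonic stem cell comparisons list 19781 genes each and that of the induced pluripotent stem cell comparison lists 19057, with 18632 genes in all 3 tables. All 44 had an adjusted p in each of the authors' deposited tables, so a filter on low values left out none of them.

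As background, a replication origin is first marked by the origin recognition complex, on which Cdc6 and Cdt1 load the ring-shaped MCM helicase. Cdc45 and the GINS complex then turn the loaded ring into a working helicase, and the DNA polymerases follow it with the sliding clamp Pcna. Many of these genes are transcribed shortly before S phase under the control of E2F transcription factors, and cells that leave the cycle keep little of their mRNA. Embryonic stem cells divide fast and spend much of their cycle in S phase, while mature osteoblasts, the matrix-making cells of bone, divide seldom.

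Messenger RNA sequencing was done on mouse cells carrying Col2.3GFP, in which green fluorescent protein is driven by a piece of the collagen type I alpha promoter that is active in osteoblasts. The groups used here are sorted ESC-OB GFP+, the GFP-positive cells taken from osteoblast cultures of the embryonic stem cell line at 35 to 40 days of differentiation (3 samples), ESC-OB, the unsorted cultures at the same age (3 samples, passages 20 to 30), and ESC, the undifferentiated line (3 samples, passages 20 to 30). The line of induced pluripotent stem cells gave iPSC-OB, cultures of the same 35 to 40 days (2 samples, passages 10 to 20), and iPSC, the undifferentiated cells (2 samples, passages 10 to 20). All differentiated cells had passed through 6 days as embryoid bodies, which got 0.1 µM retinoic acid between day 3 and day 5, before osteogenic medium, and each line is represented by a single reporter line. Calvarial osteoblasts and bone cells of the same series were not analysed here. The sources used here do not say whether replicates were separate cultures, so p-values reflect only spread among these samples, which may be technical. The tables hold comparisons and means over libraries, and values per library were not analysed here. Depths read from the lowest base means were 21.2 to 28.5 M reads in sorted ESC-OB GFP+, 6.37 to 10.9 M in ESC-OB, 4.25 to 18.5 M in ESC, 9.59 to 16.8 M in iPSC-OB and 9.91 to 12.4 M in iPSC, where the tables point to 3 libraries and the labels give 2 samples.

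The labels were checked against markers by estimated group levels, which are mean normalised counts worked out from the base means and fold changes of the authors' deposited tables. The 6 osteoblast markers summed to 116713 in sorted ESC-OB GFP+, 56605 in ESC-OB and 145 in ESC, and to 29907 in iPSC-OB and 8577 in iPSC. Col1a1, the type I collagen gene, made up 4775 of the iPSC sum, against 124 in ESC, so collagen transcripts were present in the libraries taken as iPSC. This is an estimated mean over 3 libraries by the tables and 2 samples by the labels. Which cells or libraries held these transcripts was not tested. Col1a1 and Col1a2 carried the sum in sorted ESC-OB GFP+, at 61215 and 49086, and the sort itself used a type I collagen promoter. Ibsp and Sp7 also stood higher there than in ESC-OB, while Runx2 (180.7 against 285.2) and Bglap (5.75 against 9.28) stood lower. In the change of sorted ESC-OB GFP+ minus that of ESC-OB, none of the 6 passed. Pluripotency markers (5 genes) summed to 227, 376 and 44399 in sorted ESC-OB GFP+, ESC-OB and ESC, and to 536 in iPSC-OB and 21270 in iPSC. The direction of the fold changes was itself read from pluripotency genes, so these sums cannot check the labels. The differentiated cultures also held markers of other cell types. Summed levels of 4 epithelial genes were 29077, 14708 and 5966 in sorted ESC-OB GFP+, ESC-OB and ESC, and those of 3 cardiac genes were 3268, 14650 and 90.5. In iPSC-OB and iPSC the epithelial sums were 16890 and 13882 and the cardiac sums 1629 and 246. Krt8 and Krt18 carried the epithelial rise, at 44.7 and 41.9 in ESC and 6346 and 5241 in ESC-OB. Cdh1 was called lower in all 3 comparisons, at 4692 in ESC and 2002 in ESC-OB. Epcam was higher in sorted ESC-OB GFP+, not called in ESC-OB and lower in iPSC-OB. Ptprc, which defines blood cells, was at 0.87, 3.99 and 0.25 in sorted ESC-OB GFP+, ESC-OB and ESC, and the 4 macrophage markers together at 771, 855 and 205. In the iPSC line Ptprc was at 23.9 in iPSC-OB and 10.4 in iPSC, and the macrophage sums were 880.1 and 152. The sums over 5 fibroblast genes were 44401, 29319 and 93.9 in sorted ESC-OB GFP+, ESC-OB and ESC, and 13836 in iPSC-OB and 1196 in iPSC. Col3a1 carried the sum in the ESC line, at 30455 in sorted ESC-OB GFP+ and 17337 in ESC-OB. Dcn and Lum also stood higher in sorted ESC-OB GFP+ than in ESC-OB, all without passing in the difference. Pdgfra (2306.5 against 6510) and Thy1 (15.5 against 136) stood lower there, with called differences of -1.50 and -3.13. Thy1 was also called lower in sorted ESC-OB GFP+ than in ESC, where it was at 64.9. The part of these other cells in the results below was not tested. In such bulk samples, fewer dividing cells and less RNA per dividing cell cannot be told apart.

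Replication genes fell together on differentiation. In ESC-OB all 44 were lower than in ESC (adjusted p under 0.05 in the authors' deposited table), where 31.0% of all 18208 genes tested were called lower. In sorted ESC-OB GFP+ 43 of 44 were lower than in ESC, against 32.4% of 18588 genes. In iPSC-OB 39 of 44 were lower than in iPSC, against 23.1% of 17579 genes. None of the 44 had a positive log2 change in any of the 3 tables, while 38.6%, 39.1% and 26.1% of all genes were called higher. The median log2 change of the 44 was -2.69 in sorted ESC-OB GFP+, -2.74 in ESC-OB and -1.60 in iPSC-OB, beside medians of 0.28, 0.26 and 0.15 over all genes with an adjusted p in the authors' deposited tables. The sorted and unsorted ESC comparisons share their ESC libraries, so their values are set side by side and do not support each other.

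The size of the fall placed most of these genes among the lowest of the tables. Among 10856 genes with a base mean of at least 100, 24 of the 44 lay in the lowest 10% by log2 change in sorted ESC-OB GFP+ and 34 in ESC-OB. In iPSC-OB 25 lay in the lowest 10% of 10238 genes. Rrm2 stood lowest of the 44 in ESC-OB, at rank 116 from the bottom, and Orc4 highest, at rank 3278. As a share of all normalised counts, with Rn45s left out, the 44 genes took 1399 CPM (normalised counts scaled to each group's total) in sorted ESC-OB GFP+, 1307 in ESC-OB and 8794 in ESC. They took 2227 CPM in iPSC-OB and 7342 in iPSC. The pool was thus of similar size in both undifferentiated lines and larger in iPSC-OB than in ESC-OB, although the tables of the 2 lines were each normalised on their own and these levels carry no test.

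**Figure D1:**
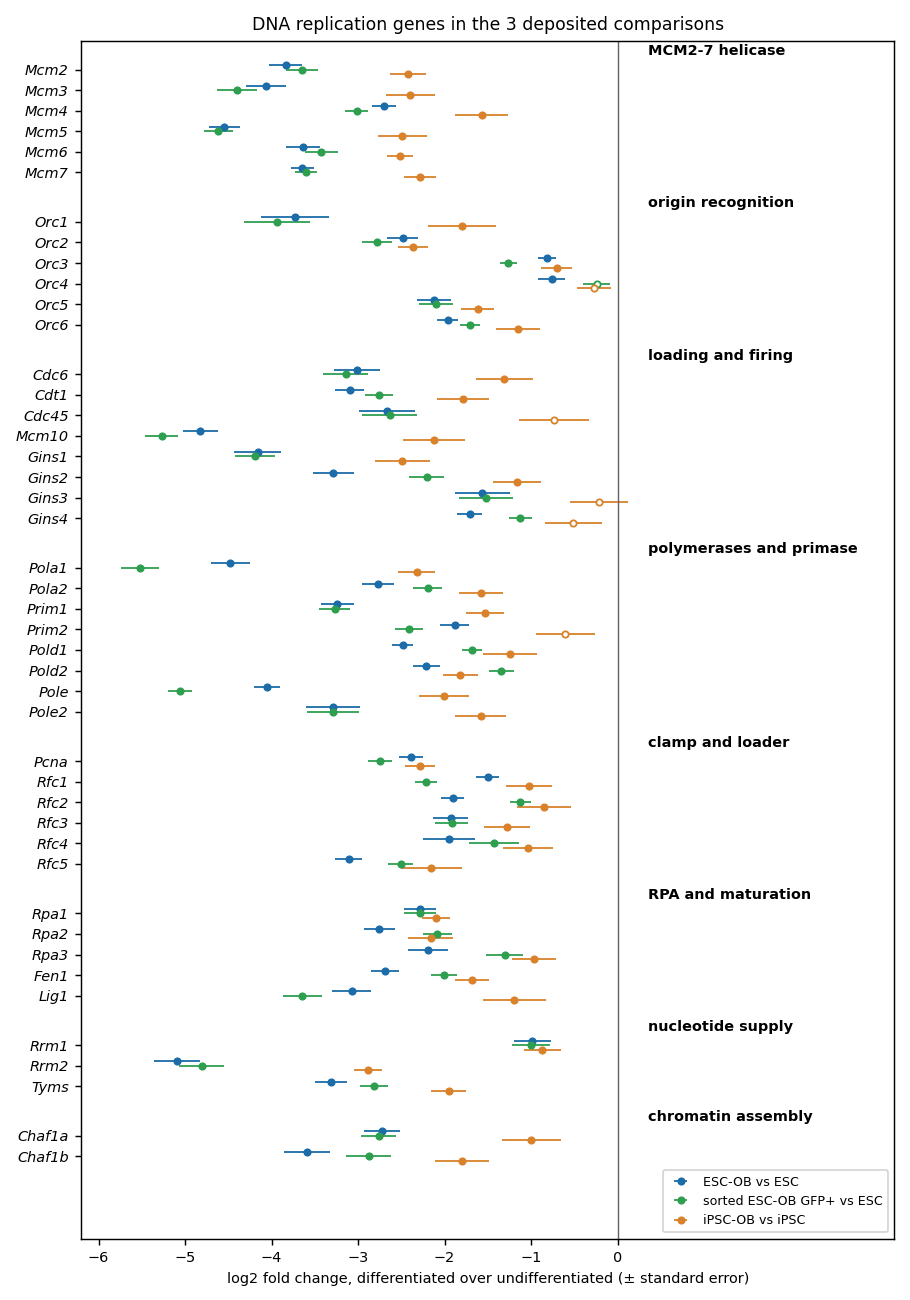
Log2 fold change (x axis, ± standard error) of each of the 44 replication genes (y axis, by role) for ESC-OB over ESC, sorted ESC-OB GFP+ over ESC and iPSC-OB over iPSC, from the authors' deposited tables. Open points missed an adjusted p of 0.05. All points lie below 0, and the iPSC-OB points lie nearest to it for most genes, with Gins3 in iPSC-OB closest of all at -0.22, followed by Orc4 in sorted ESC-OB GFP+ at -0.24 and in iPSC-OB at -0.27.

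E2F control is the best known feature of these promoters, so their sequences were searched for it. RefSeq promoter windows on build GRCm38.p6, from 250 bases before to 50 after the start site, were at hand for 37 of the 44. Mcm4, Gins1, Gins2, Gins4, Pole, Prim2 and Rfc2 were not matched. The E2F motif was searched as the letters TTTCCCGC, TTTGGCGC, TTTCGCGC or TTTGCCGC on both strands. A match was found in Cdc6, Cdt1, Gins3, Lig1, Mcm3, Mcm5, Mcm6, Mcm7, Orc1, Orc3, Pola1, Pold1, Pole2 and Rfc3, which is 14 of the 37 genes (37.8%), against 4.0% of 13150 genes with a window that were tested in ESC-OB, 2.61% of 27025 genes in the promoter table and 2.26% of 32851 windows. CCAAT, searched on both strands as a second common promoter motif, was found in 24 of the 37 (64.9%), against 41.1% of the genes in the table and 37.4% of the windows. The median log2 change in the authors' deposited ESC-OB table was -3.20 for the 14 genes with an E2F match and -2.66 for the 23 without. In sorted ESC-OB GFP+ the medians were -3.36 with a match and -2.29 without. In iPSC-OB both medians were close, at -1.69 with a match and -1.68 without, and a match is a description of the letters, not of binding. For CCAAT the medians with and without a match were -2.75 and -2.51 in sorted ESC-OB GFP+. They were -2.70 and -3.01 in ESC-OB, and -1.96 and -1.58 in iPSC-OB. Whether either motif goes with the size of the fall was not tested. The 170 bases before the start site are shown for 6 genes. Mcm6 and Mcm5 have overlapping matches on opposite strands, Orc1, Pola1 and Orc3 have single ones, and Rrm2 has none and fell most in ESC-OB. Capitals mark E2F matches, and each sequence runs 5′ to 3′ on the gene's strand.
Mcm6 (chr1:128359706-128359875, minus strand): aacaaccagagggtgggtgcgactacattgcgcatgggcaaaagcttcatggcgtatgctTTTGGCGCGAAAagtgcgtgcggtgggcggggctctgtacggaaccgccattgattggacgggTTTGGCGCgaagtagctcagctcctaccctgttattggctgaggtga
Mcm5 (chr8:75109339-75109508, plus strand): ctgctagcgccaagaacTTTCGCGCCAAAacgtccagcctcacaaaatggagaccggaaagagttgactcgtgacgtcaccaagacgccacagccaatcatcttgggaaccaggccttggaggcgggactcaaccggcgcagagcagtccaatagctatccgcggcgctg
Orc1 (chr4:108579284-108579453, plus strand): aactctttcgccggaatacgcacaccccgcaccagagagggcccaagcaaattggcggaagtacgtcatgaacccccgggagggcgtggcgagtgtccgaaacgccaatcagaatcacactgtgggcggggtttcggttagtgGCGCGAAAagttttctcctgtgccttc
Pola1 (chrX:93632156-93632325, minus strand): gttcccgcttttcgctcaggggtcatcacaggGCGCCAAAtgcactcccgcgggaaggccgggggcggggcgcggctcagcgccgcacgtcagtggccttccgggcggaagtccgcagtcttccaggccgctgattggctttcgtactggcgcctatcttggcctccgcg
Orc3 (chr4:34614943-34615112, minus strand): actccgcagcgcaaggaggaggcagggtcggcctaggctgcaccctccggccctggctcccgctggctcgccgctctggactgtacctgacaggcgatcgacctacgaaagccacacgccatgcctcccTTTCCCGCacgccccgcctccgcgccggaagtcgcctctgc
Rrm2 (chr12:24708084-24708253, plus strand): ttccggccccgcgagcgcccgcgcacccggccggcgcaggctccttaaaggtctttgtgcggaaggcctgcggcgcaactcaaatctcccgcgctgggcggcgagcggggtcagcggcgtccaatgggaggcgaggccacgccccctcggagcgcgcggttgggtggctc

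The match of Orc1 begins 27 bases before its start site and that of Orc3 begins 41 before it, so a match close to the start stood in a gene that fell strongly and in one that fell little. Orc1 was at -3.73 ± 0.39 and Orc3 at -0.82 ± 0.10 in ESC-OB in the authors' deposited table (± standard error here and below). Rrm2, with no match in its 300 bases, was at -5.10 ± 0.27 there. Whether the capitals are bound in these cells was not tested.

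The MCM helicase, a ring of 6 related subunits that unwinds the DNA ahead of the fork, fell in every subunit. All 6 genes were lower in each comparison, with median log2 changes of -3.63 in sorted ESC-OB GFP+, -3.74 in ESC-OB and -2.41 in iPSC-OB in the authors' deposited tables. Mcm5 fell most in both ESC comparisons, at -4.62 ± 0.17 in sorted ESC-OB GFP+ and at -4.55 ± 0.17 in ESC-OB in the authors' deposited tables (adjusted p = 5.61e-163 and 2.71e-146). Its estimated level was 251 in sorted ESC-OB GFP+ and 264 in ESC-OB, against 6159 in ESC. In the iPSC line Mcm5 was at 841 in iPSC-OB and 4719 in iPSC. Mcm4 fell least in all 3, at -3.02 ± 0.13, -2.70 ± 0.14 and -1.57 ± 0.31 in sorted ESC-OB GFP+, ESC-OB and iPSC-OB in the authors' deposited tables. Mcm6 had the largest fall of the 6 in iPSC-OB, at -2.52 ± 0.15 in the authors' deposited table. Mcm6 stood at 584 in sorted ESC-OB GFP+, 505 in ESC-OB and 6278 in ESC.

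The subunits of the MCM ring assemble in equal numbers, and their transcripts were less even after differentiation. Per kb of transcript, levels of the 6 genes spanned 2.71-fold in sorted ESC-OB GFP+, from Mcm5 at 74.2 to Mcm6 at 201 normalised counts per kb. They spanned 2.94-fold in ESC-OB, from Mcm5 at 78.0 to Mcm4 at 229 per kb, and 1.54-fold in ESC, from Mcm4 at 1496 to Mcm3 at 2309 per kb. In the iPSC line the span was 1.78-fold in iPSC-OB and 1.49-fold in iPSC. Mcm4 was the lowest of the 6 per kb in both undifferentiated lines and the highest in ESC-OB and iPSC-OB. These spans are descriptions of group means and have no replicate check.

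**Figure D2:**
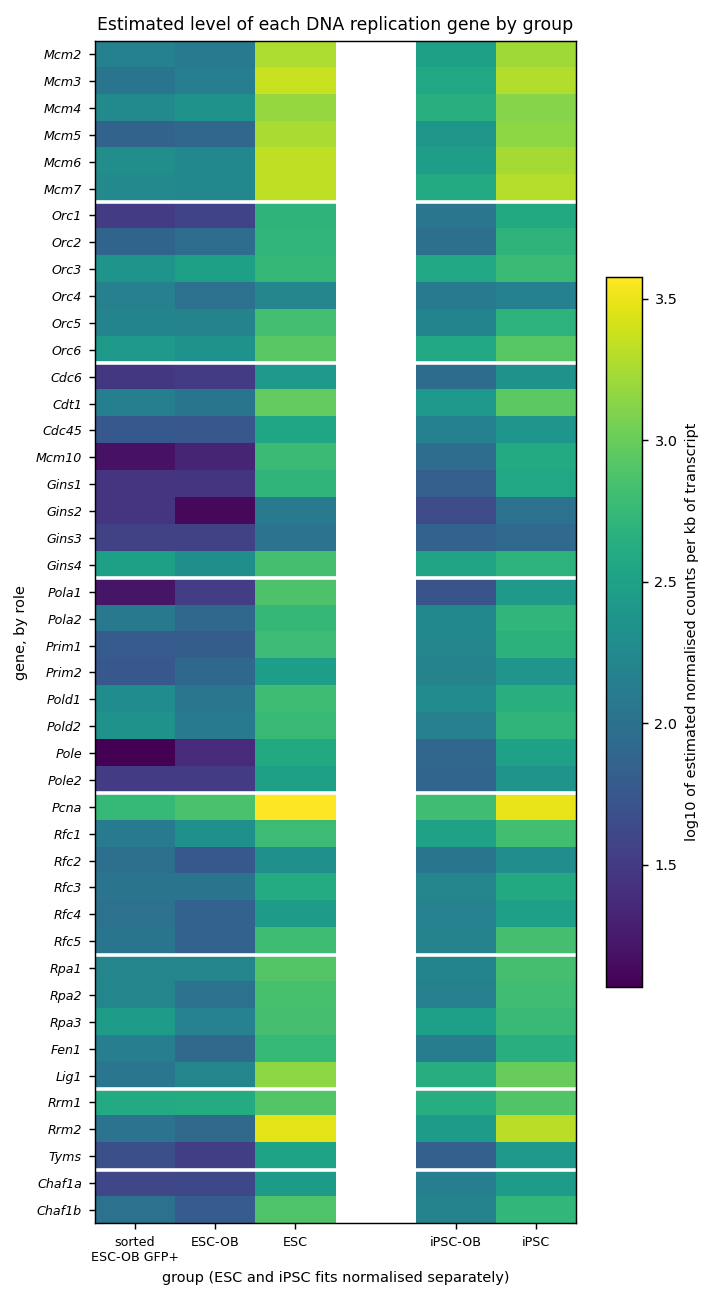
Estimated level of each of the 44 genes (rows, by role, white lines between roles) in sorted ESC-OB GFP+, ESC-OB, ESC, iPSC-OB and iPSC (columns), as log10 of normalised counts per kb of transcript. The ESC column is bright for the MCM genes, Pcna and Rrm2, between 1496 and 3761 per kb, and the same rows are between 74.2 and 719 per kb in sorted ESC-OB GFP+ and ESC-OB.

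The subunits of the origin recognition complex changed unevenly. Its largest subunit gene, Orc1, whose protein varies in amount over the cell cycle in mammals, fell to a log2 change of -3.93 ± 0.38 in sorted ESC-OB GFP+ and at -3.73 ± 0.39 in ESC-OB in the authors' deposited tables (adjusted p = 4.62e-24 and 5.07e-21). Its estimated level was 98.7 in sorted ESC-OB GFP+ and 114 in ESC-OB, against 1508 in ESC. Orc4, another subunit with an ATPase fold, stayed nearest to its starting level. Orc4 stood at 584 in sorted ESC-OB GFP+, 407 in ESC-OB and 691 in ESC, and at 500.2 in iPSC-OB and 603 in iPSC. It fell to a log2 change of -0.76 ± 0.16 in ESC-OB (adjusted p = 3.99e-06) and missed the threshold at -0.24 ± 0.15 in sorted ESC-OB GFP+ and -0.27 ± 0.20 in iPSC-OB in the authors' deposited tables (adjusted p = 0.147 and 0.258). Orc4 passed in sorted ESC-OB GFP+ when the table was re-centred on its median gene, at -0.45 (adjusted p = 0.00533).

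Orc3, a subunit without ATPase activity, was the next mildest in both lines. It fell to log2 changes of -1.26 ± 0.10, -0.82 ± 0.10 and -0.70 ± 0.18 in sorted ESC-OB GFP+, ESC-OB and iPSC-OB in the authors' deposited tables (adjusted p = 2.44e-36, 6.07e-15 and 2.87e-04). Orc2 had the largest fall of the complex in iPSC-OB, at -2.36 ± 0.18 in the authors' deposited table, where Orc1 fell to a log2 change of -1.80 ± 0.39. Orc5 and Orc6 fell to log2 changes of -2.12 ± 0.20 and -1.96 ± 0.12 in ESC-OB in the authors' deposited table. Per kb, Orc1 was the lowest of the 6 in sorted ESC-OB GFP+ at 32.7 and in ESC-OB at 37.7, while Orc4 was the lowest in ESC. The ratio of the highest to the lowest subunit per kb was 8.07 in sorted ESC-OB GFP+, 8.32 in ESC-OB and 5.08 in ESC.

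Loading and firing factors fell in all 8 cases in both ESC comparisons and in 5 of 8 in iPSC-OB. Mcm10, which helps the loaded helicase to start, had the largest fall of the role in the ESC line, at -5.27 ± 0.19 in sorted ESC-OB GFP+ and at -4.83 ± 0.21 in ESC-OB in the authors' deposited tables (adjusted p = 3.21e-161 and 3.34e-120). Its estimated level was 75.4 in sorted ESC-OB GFP+ and 103 in ESC-OB, against 2911 in ESC. In the iPSC line Mcm10 was at 445 in iPSC-OB and 1934 in iPSC. The loading factors Cdc6 and Cdt1 fell to log2 changes of -3.01 ± 0.26 and -3.10 ± 0.17 in ESC-OB in the authors' deposited table. Cdc45, which joins the helicase at firing, fell to a log2 change of -2.66 ± 0.33 in ESC-OB and was at -0.73 ± 0.40 in iPSC-OB in the authors' deposited tables (adjusted p = 1.17e-15 and 0.119).

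The 4 GINS subunits form 1 complex and had changes of unlike size. Gins1 fell to a log2 change of -4.16 ± 0.27 in ESC-OB and at -2.49 ± 0.32 in iPSC-OB in the authors' deposited tables, the iPSC-OB fall being the largest of its role there. Gins3 fell to a log2 change of -1.56 ± 0.32 in ESC-OB and was at -0.22 ± 0.34 in iPSC-OB in the authors' deposited tables (adjusted p = 2.66e-06 and 0.622). Gins3 stood at 92.3 in sorted ESC-OB GFP+, 89.8 in ESC-OB and 265 in ESC, and at 181 in iPSC-OB and 210.2 in iPSC. Gins4 fell to a log2 change of -1.12 ± 0.13, the smallest fall of the role in sorted ESC-OB GFP+, and was at -0.51 ± 0.33 in iPSC-OB in the authors' deposited tables (adjusted p = 2.40e-17 and 0.188). With Orc4, Cdc45 and Prim2, these were the 5 genes that missed the threshold in iPSC-OB, and their errors there, from 0.20 to 0.40, were larger than in ESC-OB.

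All 8 genes for polymerases and primase fell in both ESC comparisons and 7 of 8 in iPSC-OB. Pola1, the catalytic subunit of the polymerase that starts each new strand, fell most in all 3, at -5.52 ± 0.22 in sorted ESC-OB GFP+, -4.48 ± 0.23 in ESC-OB and -2.32 ± 0.21 in iPSC-OB in the authors' deposited tables (adjusted p = 1.24e-132, 7.51e-85 and 5.09e-26). Its estimated level was 86.6 in sorted ESC-OB GFP+ and 179 in ESC-OB, against 3980.5 in ESC. The same gene was at 282 in iPSC-OB and 1415 in iPSC. Pole, the catalytic subunit of the leading-strand polymerase, stood at 83.9 in sorted ESC-OB GFP+, 168 in ESC-OB and 2797 in ESC. It fell to a log2 change of -5.06 ± 0.14 in sorted ESC-OB GFP+ and at -4.05 ± 0.15 in ESC-OB in the authors' deposited tables. Prim2, the large primase subunit, had the smallest fall of the role in ESC-OB, at -1.88 ± 0.17, and was at -0.61 ± 0.34 in iPSC-OB in the authors' deposited tables (adjusted p = 6.68e-29 and 0.127). Pold2, an accessory subunit of the lagging-strand polymerase, had the smallest fall in sorted ESC-OB GFP+, at -1.34 ± 0.15 in the authors' deposited table.

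The sorted cells had the widest spread among polymerase genes. Per kb, the highest of the 8, Pold2 at 228, was 19.5-fold above the lowest, Pole at 11.7, in sorted ESC-OB GFP+. In ESC-OB the same pair stood 5.31-fold apart, at 125 and 23.5 per kb, and in ESC the 8 genes spanned 2.48-fold, from Prim2 at 300.4 to Pola1 at 745 per kb. Transcript length bears on these spans, as described with the sorted cells below.

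The sliding clamp and its loader fell in all 6 cases in each comparison. Pcna, the clamp itself, had the highest level per kb of the 44 in every group. Its estimated level was 851 in sorted ESC-OB GFP+ and 1091 in ESC-OB, against 5710 in ESC, and it was 963 in iPSC-OB and 4686 in iPSC. Pcna fell to log2 changes of -2.75 ± 0.13, -2.39 ± 0.14 and -2.28 ± 0.18 in sorted ESC-OB GFP+, ESC-OB and iPSC-OB in the authors' deposited tables (adjusted p = 1.27e-90, 7.05e-67 and 7.31e-36). Rfc1 encodes the large subunit of the loader used in replication, while Rfc2 to Rfc5 also serve in other loaders. Rfc1 had the smallest fall of the role in ESC-OB, at -1.5 ± 0.13, and Rfc5 the largest, at -3.11 ± 0.16, in the authors' deposited table. Rfc2 had the smallest fall in the other 2 comparisons, at -1.13 ± 0.12 in sorted ESC-OB GFP+ and at -0.85 ± 0.31 in iPSC-OB in the authors' deposited tables (adjusted p = 2.52e-20 and 0.0152).

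Single-strand binding and Okazaki fragment genes fell in all 5 cases in each comparison. Lig1, the ligase that seals the fragments, fell most in the ESC line, at -3.64 ± 0.22 in sorted ESC-OB GFP+ and at -3.07 ± 0.23 in ESC-OB in the authors' deposited tables. In iPSC-OB the largest fall of these 5 was that of Rpa2, a single-strand binding subunit, at -2.16 ± 0.26, while Lig1 fell to a log2 change of -1.19 ± 0.37 (adjusted p = 2.04e-15 and 0.00336 in the authors' deposited table). Lig1 stood at 358 in sorted ESC-OB GFP+, 532 in ESC-OB and 4478 in ESC, and at 1366 in iPSC-OB and 3123 in iPSC. Rpa3, the smallest subunit, fell least in all 3, at -1.31 ± 0.21, -2.19 ± 0.23 and -0.97 ± 0.25 in sorted ESC-OB GFP+, ESC-OB and iPSC-OB in the authors' deposited tables. Fen1, which trims the fragment ends, fell to a log2 change of -2.69 ± 0.16 in ESC-OB and Rpa1, the large subunit, at -2.29 ± 0.18 in the authors' deposited table.

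Among the nucleotide supply genes, both subunits of a single enzyme stood far apart. Ribonucleotide reductase, which makes the building blocks of DNA, pairs the large subunit Rrm1 with a small subunit, Rrm2 in dividing cells or Rrm2b outside S phase. Rrm2 stood at 231 in sorted ESC-OB GFP+ and 189 in ESC-OB, against 6470.3 in ESC, and at 615 in iPSC-OB and 4547 in iPSC. It fell to log2 changes of -4.81 ± 0.26, -5.10 ± 0.27 and -2.89 ± 0.16 in sorted ESC-OB GFP+, ESC-OB and iPSC-OB in the authors' deposited tables (adjusted p = 5.66e-75, 7.63e-80 and 1.57e-67). The ESC-OB level of Rrm2 was 34.3-fold lower than in ESC. Rrm1 fell to log2 changes of -1.0 ± 0.22, -0.99 ± 0.22 and -0.87 ± 0.21 in the same order in the authors' deposited tables, the smallest fall of the role in each. Rrm1 stood at 1604 in sorted ESC-OB GFP+, 1623 in ESC-OB and 3214 in ESC. Per kb, Rrm2 was above Rrm1 in ESC, at 2950 against 804, and below it in ESC-OB, at 86.1 against 406. The order also turned in the iPSC line, where Rrm2 was at 280 and Rrm1 at 428 per kb in iPSC-OB, and at 2074 and 782 per kb in iPSC. Tyms, which makes thymidylate, fell to a log2 change of -3.31 ± 0.18 in ESC-OB in the authors' deposited table.

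Rrm2b, the small subunit that is not tied to S phase, did not follow Rrm2. It rose by 0.72 ± 0.23 in ESC-OB and was at -0.09 ± 0.23 in sorted ESC-OB GFP+ and 0.65 ± 0.34 in iPSC-OB in the authors' deposited tables (adjusted p = 0.00303, 0.735 and 0.0972). Its estimated level was 138 in sorted ESC-OB GFP+, 242 in ESC-OB and 146 in ESC. In normalised counts per kb, Rrm2b stood at 30.2, 53.0 and 32.1 in the same 3 groups, against 105, 86.1 and 2950 for Rrm2. The chromatin assembly genes Chaf1a and Chaf1b, whose products place new histones behind the fork, both fell in each comparison. Chaf1b fell to log2 changes of -2.88 ± 0.26, -3.59 ± 0.27 and -1.80 ± 0.31 and Chaf1a to -2.76 ± 0.20, -2.73 ± 0.21 and -1.0 ± 0.34 in sorted ESC-OB GFP+, ESC-OB and iPSC-OB in the authors' deposited tables.

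Of 83 other genes of the replication pathway 82 were found, and most fell with the 44. In sorted ESC-OB GFP+ 65 fell and 6 rose, in ESC-OB 63 fell and 8 rose, and in iPSC-OB 56 fell and 6 rose, with medians of -2.04, -2.07 and -1.11 in the authors' deposited tables. Among all genes tested, 32.4%, 31.0% and 23.1% were called lower in the same order, and 39.1%, 38.6% and 26.1% higher. The genes grouped as regulators of replication fell in 12 of 13 cases in both ESC comparisons. Ticrr, which links kinase activity to firing, fell to a log2 change of -5.73 ± 0.16 in sorted ESC-OB GFP+ and at -4.83 ± 0.17 in ESC-OB in the authors' deposited tables. The kinase gene Cdc7 did not pass in any of the 3, at -0.21 ± 0.27, -0.42 ± 0.28 and -0.30 ± 0.34 in sorted ESC-OB GFP+, ESC-OB and iPSC-OB in the authors' deposited tables. Uhrf1, which couples DNA methylation to the fork, had the largest fall of the whole list in ESC-OB, at -5.30 ± 0.29 in the authors' deposited table. Ccne1, the gene of cyclin E1, had the largest fall of the list in iPSC-OB, at -4.48 ± 0.26, and was at -4.22 ± 0.25 in ESC-OB in the authors' deposited tables.

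A few pathway genes rose against the rest. Pold4, the smallest subunit of the lagging-strand polymerase, stood at 448 in sorted ESC-OB GFP+ and 359 in ESC-OB, against 22.3 in ESC, and at 245 in iPSC-OB and 34.2 in iPSC. It rose by 4.33 ± 0.29, 4.01 ± 0.29 and 2.84 ± 0.31 in sorted ESC-OB GFP+, ESC-OB and iPSC-OB in the authors' deposited tables (adjusted p = 1.79e-49, 1.32e-41 and 1.23e-18). Its partner Pold1, the catalytic subunit, fell to log2 changes of -1.69 ± 0.11, -2.48 ± 0.12 and -1.24 ± 0.31 in the same order in the authors' deposited tables. Rbl2, a pocket protein that represses E2F targets in resting cells, rose by 1.13 ± 0.19, 1.55 ± 0.19 and 1.80 ± 0.26 in the authors' deposited tables. Rb1, a related repressor, rose by 0.92 ± 0.14 in ESC-OB and by 0.97 ± 0.21 in iPSC-OB and was at 0.28 ± 0.14 in sorted ESC-OB GFP+ in the authors' deposited tables (adjusted p = 7.07e-10, 1.35e-05 and 0.0678). The activator E2f1 fell to log2 changes of -2.53 ± 0.13, -3.13 ± 0.15 and -0.87 ± 0.21 in sorted ESC-OB GFP+, ESC-OB and iPSC-OB in the authors' deposited tables. Tk2, a thymidine kinase of mitochondria, rose by 1.51 ± 0.20 in sorted ESC-OB GFP+ and by 1.07 ± 0.20 in ESC-OB, while Rnaseh2c, a ribonuclease subunit, rose by 0.80 ± 0.18 in sorted ESC-OB GFP+ alone of the 3 in the authors' deposited tables.

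Repair and translesion polymerases had no common direction. Of these 11 genes 4 fell and 2 rose in sorted ESC-OB GFP+, 3 fell and 3 rose in ESC-OB, and 1 fell and 3 rose in iPSC-OB in the authors' deposited tables. Over all genes tested, 32.4% fell and 39.1% rose in sorted ESC-OB GFP+, 31.0% and 38.6% in ESC-OB, and 23.1% and 26.1% in iPSC-OB. The counts of the 11 lie near or below these shares. Polk, Mad2l2 and Polb rose in ESC-OB, by 0.86 ± 0.21, 0.91 ± 0.16 and 0.83 ± 0.18 in the authors' deposited table. Polq, which joins broken ends, was the lowest of the group in both ESC comparisons, at -3.89 ± 0.24 in sorted ESC-OB GFP+ and -2.43 ± 0.24 in ESC-OB in the authors' deposited tables. In iPSC-OB the risers were Polh (1.16 ± 0.45), Polk (2.59 ± 0.39) and Poln (2.65 ± 0.96), the last at a base mean of 7.45 in the authors' deposited table.

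**Figure D3:**
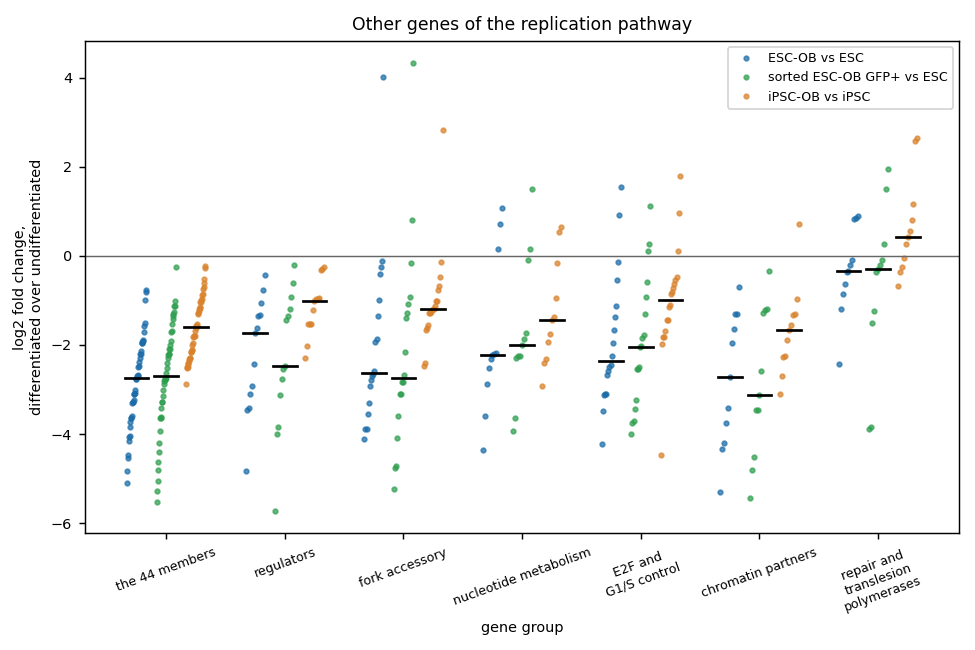
Log2 fold change (y axis) of the 44 genes and of 6 further gene groups of the replication pathway (x axis) in ESC-OB over ESC, sorted ESC-OB GFP+ over ESC and iPSC-OB over iPSC, each point a gene and each black bar a median. The groups lie mostly below 0 apart from the repair and translesion polymerases, whose medians are -0.34, -0.29 and 0.43 in that order, and Pold4 is the high point of the fork accessory group at up to 4.33.

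Sorting for the reporter addresses how the cells with an active collagen promoter differ from the whole culture. The median of the 44 differences between sorted and unsorted changes was 0.03 log2 units, beside 0.06 over all genes. In the change of sorted ESC-OB GFP+ minus that of ESC-OB, 4 of the 44 were lower, beside 12.1% of all 19781 genes, and 9 were higher, beside 10.7%. The other 31 did not pass. None of the 6 MCM2-7 genes passed, with unadjusted p from 0.103 to 0.845. Since both changes share the ESC libraries and the errors were summed, this test is conservative.

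The 4 genes that fell further in the sorted cells were Pola1, Pole, Rfc1 and Orc3. Their differences were -1.05 ± 0.32 (adjusted p = 0.00658), -1.01 ± 0.21 (1.42e-05), -0.71 ± 0.19 (0.00102) and -0.45 ± 0.14 (0.0102). On the other side Gins2 differed by 1.08 ± 0.31 (adjusted p = 0.00367), Rpa3 by 0.89 ± 0.31 (0.0234), Pold2 by 0.87 ± 0.22 (6.33e-04), Pold1 by 0.80 ± 0.17 (2.13e-05) and Rfc2 by 0.78 ± 0.18 (1.14e-04). Fen1, Rpa2, Rfc5 and Gins4 were higher by 0.59 to 0.68. Among the polymerases, the catalytic and an accessory gene of the lagging-strand enzyme, Pold1 and Pold2, were higher, while Pola1 and Pole were lower.

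Transcript length moved with this difference. Over 14073 genes of known length whose base mean reached 10 (95.4% of such genes), the sorted minus unsorted difference had a Spearman correlation of -0.50 with length. It ran from a median of 0.58 in the shortest of 20 length bins to -1.21 in the longest. The labels name a standard kit and an ultra-low-input kit for libraries, and the sources used here do not say which samples had which, so kit and sort cannot be told apart. Over the 44 genes the correlation was -0.33, a description over genes of the same libraries. The lower genes Pola1, Pole and Rfc1 have transcripts of 5346, 7163 and 4751 nt and the higher genes Rpa3 and Pold2 of 670 and 1646 nt. Other called genes ran against the trend: Rfc2, Gins2 and Pold1 were higher with 4995, 3900 and 3454 nt, and Orc3 was lower with 2300 nt. Each length is that of the gene's longest transcript annotated as principal, or of its longest transcript where none is so marked. Which transcript these cells used was not tested, so the place of a gene against the trend rests on that choice.

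Set against genes of like length, fewer of the 44 differed. The count was 3 lower, beside 11.8% of 14073 genes, and 4 higher, beside 8.22%. The lower share of the 44 was thus below that of all genes and the higher share close to it. These calls do not set the 44 apart from other genes. Of the 9 higher genes Gins2, Pold1 and Rfc2 remained, at 1.18, 0.75 and 1.13 (adjusted p = 0.00142, 8.24e-05 and 6.17e-09). Of the 4 lower genes Orc3 alone remained, at -0.79 (adjusted p = 7.23e-07), while Pole moved to -0.12 and Pola1 to -0.56 (adjusted p = 0.785 and 0.236). Prim2 at -0.97 and Pcna at -0.96 became lower, and Orc4 at 0.62 became higher (adjusted p = 2.73e-04, 1.12e-05 and 0.0284). Gins4 turned to -0.05 without passing (adjusted p = 0.921). This alternative was added after the data were seen.

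**Figure D4:**
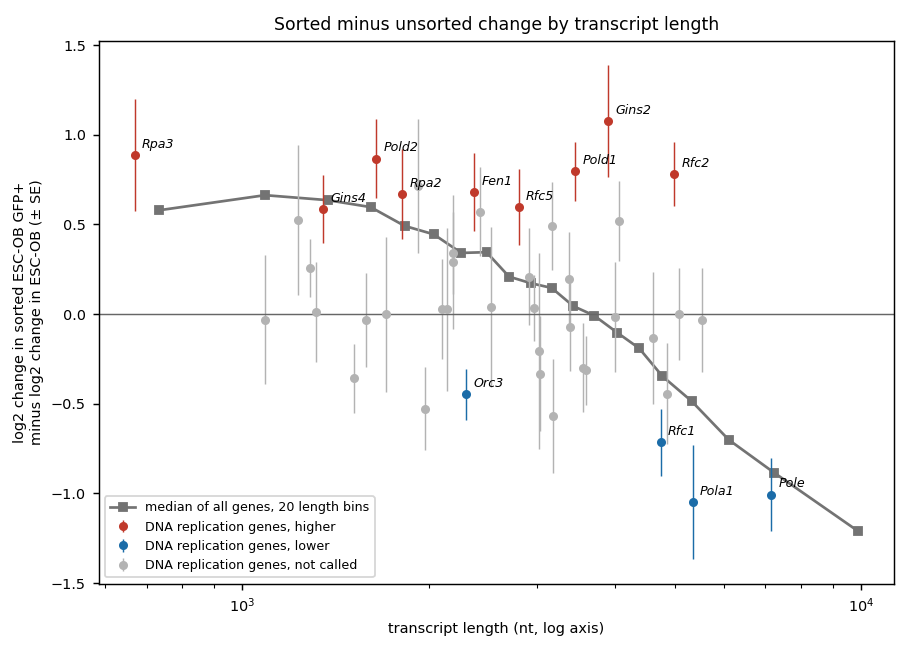
Log2 change in sorted ESC-OB GFP+ minus log2 change in ESC-OB (y axis, ± standard error) against transcript length (x axis, log scale) for the 44 genes, coloured by call, with the median of all genes in 20 length bins as grey squares. The squares run from 0.58 for the shortest transcripts to -1.21 for the longest, Pole and Rpa3 lie near them, and Gins2, Rfc2 and Pold1 lie above and Orc3 below.

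General proliferation markers were lower in the sorted change in 2 of 6 cases, beside 12.1% of all 19781 genes. Mki67, a protein of dividing cells, had a difference of -2.4 ± 0.24 (adjusted p = 4.71e-22) and Top2a, a topoisomerase of S phase to mitosis, one of -1.69 ± 0.28 (6.41e-08). Against genes of like length, an alternative added after the data were seen, both stayed lower, Mki67 at -1.19 (adjusted p = 9.52e-06) and Top2a at -1.20 (2.73e-04). The other 4 of 6 proliferation markers did not pass in either setting, such as Ccnb1 at 0.05 ± 0.43 without length matching (adjusted p = 0.966). The summed level of the 6 was 1527 in sorted ESC-OB GFP+, 3108 in ESC-OB and 33287 in ESC. Between sorted ESC-OB GFP+ and ESC-OB that sum moved mainly with Mki67, at 188 and 991, and Top2a, at 361 and 1164. Bub1 was also lower in sorted ESC-OB GFP+ than in ESC-OB, at 94.0 and 159, without passing. In the same order Ccnb1 was at 376 and 363, Cdk1 at 303 and 280 and Aurka at 204 and 151.

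The iPSC line addresses whether the fall depends on the source of the cells. In iPSC-OB the fall was smaller for 32 of the 44 genes, which were higher in the iPSC-OB change minus the ESC-OB change, beside 11.0% of 18632 genes. No member was lower, beside 17.2%, and all 44 differences were positive, the smallest 0.10 ± 0.22 for Pcna. The median difference was 1.26 log2 units, beside -0.07 over all genes. The largest were those of Mcm10 (2.71 ± 0.41), Rrm2 (2.21 ± 0.31), Pola1 (2.15 ± 0.31), Gins2 (2.12 ± 0.36) and Mcm5 (2.06 ± 0.34), with adjusted p of 1.49e-09, 5.34e-11, 1.64e-10, 1.05e-07 and 2.12e-08. These 5 stood at 174.5 to 841 in iPSC-OB, above their 51.4 to 264 in ESC-OB, with the tables normalised separately. All 5 also started lower in iPSC than in ESC. Pola1 was at 1415 against 3980.5, Mcm10 at 1934 against 2911 and Rrm2 at 4547 against 6470.3. Both the lower start and the higher end enter these differences. For Pola1, at 282 in iPSC-OB and 179 in ESC-OB, the start differed more than the end.

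By role, all 6 MCM2-7 genes, all 8 loading and firing genes and both chromatin assembly genes were among the 32, with 7 of 8 for polymerases and primase. The clamp and loader gave 2 of 6 and origin recognition 2 of 6, Orc1 at 1.93 ± 0.55 and Orc6 at 0.81 ± 0.28 (adjusted p = 0.00287 and 0.0157). The 12 that did not pass were Orc2, Orc3, Orc4, Orc5, Pold2, Pcna, Rfc1, Rfc3, Rfc4, Rpa1, Rpa2 and Rrm1. Orc2 differed by 0.12 ± 0.25 and Rpa1 by 0.19 ± 0.25, after falls of over 2 log2 units in both lines, so the smaller fall was not uniform. For such genes a p that misses the threshold does not show that the lines acted alike.

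**Figure D5:**
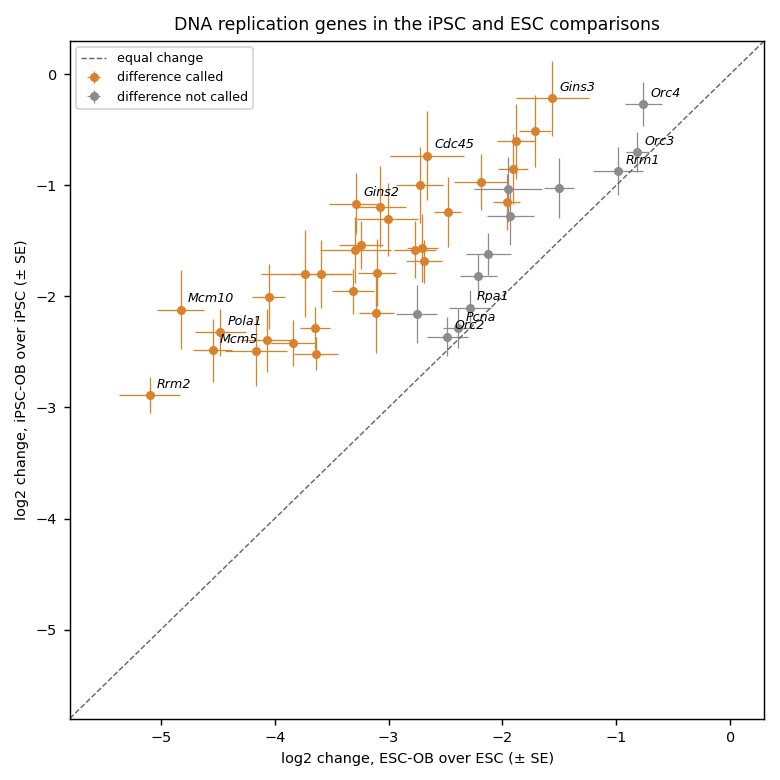
Log2 change in iPSC-OB over iPSC (y axis) against that in ESC-OB over ESC (x axis) for the 44 genes, with standard errors as bars, the dashed line marking equal change. The 32 orange genes passed the test of the difference and lie above the line, with Mcm10 and Rrm2 among the farthest from it, while Orc2, Pcna and Rpa1 lie close to it.

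Other readouts moved with this difference. All 6 proliferation markers also had a higher change in iPSC-OB, by a median of 2.44 log2 units, and Mki67 stood at 6078 in iPSC-OB and 8702 in iPSC, without passing in the authors' deposited table (-0.52 ± 0.39, adjusted p = 0.277). Of 6 osteoblast markers 3 were lower in the iPSC-OB change, Col1a1 by a difference of -6.25 ± 0.56, with the iPSC level of 4775 given above. Pluripotency markers fell less in 4 of 5 cases, Nanog by 3.15 ± 0.55, although their summed level in iPSC-OB was 536. Cardiac, fibroblast and epithelial markers were lower in the iPSC-OB change in 2 of 3, 4 of 5 and 3 of 4 cases. Beside these counts, 17.2% of all 18632 genes were lower in the iPSC-OB change and 11.0% higher. The iPSC fit held 5 libraries against 9 in the ESC fit, and its fold changes are shrunk more towards 0. With the shrinkage approximately undone, an alternative added after the data were seen, 31 of the 44 were higher and the median was 1.22. Line and passage number cannot be told apart, and the part of the marker differences was not tested.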

How the data were processed

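Messenger RNA sequencing of mouse stem cells and osteoblasts made from them was compared by the authors, and the files hold their comparison tables. The submitters' processing notes name STAR 2.4.2a, DESeq2, R 3.2.2 and the build mm9, with no roles given. The deposited columns, per the file headers, are the base mean (a signal: size-factor-scaled counts averaged over libraries), the log2 fold change, its standard error, the test score (fold over error) and the p-value, raw and adjusted. The direction of the deposited log2 values was read from pluripotency genes, which are strongly negative, so positive was taken as higher in differentiated cells. Base means were identical in both ESC tables. The largest standard errors plateau at 1.89, 1.89 and 1.29, a feature of shrunken folds, and the deposited changes of sparsely read genes are therefore too small.

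Numbers and depths of libraries were read from base means of the lowest genes, which are sums of whole reads (tolerance 3.0e-07), with Rn45s left out of totals. This gave 9 libraries in the ESC fit and 5 in the iPSC fit, 3 of them on the iPSC side, against 2 iPSC samples in the labels. In the ESC fit 1 library had no gene of its own and was taken as ESC. Group levels were estimated from base means, folds and these numbers, divided by transcript length (GENCODE vM21, GRCm38) where genes are compared, and they depend on the shrinkage. Levels per kb also depend on the transcript taken for the length, the longest principal or else the longest. Calls are the authors' at an adjusted p under 0.05. Differences between deposited log2 changes were divided by the root of the summed squared errors (normal approximation), with Benjamini-Hochberg adjustment over all genes in both tables, and checked on simulated data. Promoter windows came from a RefSeq table on GRCm38.p6, and no coordinates of the authors' build were used. Python 3.11.15, pandas 2.3.3, numpy 2.4.6 and scipy 1.17.1 were used. Columns of single samples numbered 0. The members, roles, pathway list, markers and tests were chosen with earlier results of these data known. In each role the genes with the largest and smallest change were named, with each one that missed the threshold, and in each difference up to 5 called genes in each direction. Pathway genes were named where they had an extreme change in their group or moved against it. E2f1 and others named beside these as partners of a described gene (Pold1, Cdc6, Cdt1, Orc5, Orc6, Fen1, Rpa1) were added after their values were seen. Alternatives tried were a stricter threshold, a minimum fold, re-centring on the median gene, base mean minimums, another adjustment, a correlation of 0.5 between changes, length matching and undone shrinkage.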

Additional observations from a re-analysis of the deposited data

Results flagged for a closer look

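A number of results differed between groups under the same contrast by the test of the difference itself. Between sorted ESC-OB GFP+ and ESC-OB, 4 of the 44 replication genes had a lower change in the sorted cells, Pola1 (-1.046), Pole (-1.006), Rfc1 (-0.7143) and Orc3 (-0.4465). These 4 stand beside 12.1% of all genes called lower, so their share is no higher than that of all genes. A higher change was found for 9, beside 10.7% of all genes, the 5 largest being Gins2 (1.077), Rpa3 (0.8875), Pold2 (0.868), Pold1 (0.7962) and Rfc2 (0.7809). Transcript length moves with these differences over all genes, and against genes of like length Orc3, Gins2, Pold1 and Rfc2 kept their calls. The counts there, 3 lower and 4 higher, stand beside 11.8% and 8.22% of 14073 genes and do not set the 44 apart. Between iPSC-OB and ESC-OB, 32 of the 44 had a higher change, that is a smaller fall, in iPSC-OB, beside 11.0% of all genes. The 5 largest of these differences were those of Mcm10 (2.706), Rrm2 (2.213), Pola1 (2.152), Gins2 (2.118) and Mcm5 (2.059).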

How the results depend on the processing

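The counts of genes that fell in each comparison, the median of the iPSC-OB change and the count and median of the iPSC-OB minus ESC-OB differences stayed close to their values under each alternative that was run (29 to 32 of 44 higher). The count of fallen genes was 44 in ESC-OB except 41 with a log2 change of at least 1, 43 or 44 in sorted ESC-OB GFP+, and 34 to 39 in iPSC-OB. The median gene lay at 0.19, 0.21 and 0.061 in ESC-OB, sorted ESC-OB GFP+ and iPSC-OB, and re-centring on it moved the median of the 44 to -2.931 in ESC-OB and -2.901 in sorted ESC-OB GFP+. The counts for sorted minus unsorted change were less stable, and their median of 0.03 became -0.042 on re-centring and -0.11 against genes of like length. The 9 higher genes became 4 at an adjusted p under 0.01, 1 with a difference of at least 1 and 4 against genes of like length, and the 4 lower genes became 2 with a difference of at least 1 and 7 with a correlation of 0.5 between the changes, where the 9 higher became 13. Against genes of like length Gins4 reversed to -0.0481, and 13 genes that passed in neither setting changed sign. For single genes under the stricter threshold, re-centring, length matching and undone shrinkage, 452 called values kept their call, 21 lost it and 1 reversed, while 136 values not called stayed so and 6 gained a call. Depth limits mainly the low genes, and leaving out each replicate was not run because values per library were not analysed here. No paired analysis was possible because the tables hold comparisons and means, with no values per library.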
